A study of Mus musculus with 12 samples.

Results

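Tnf and Il6, the genes of the inflammatory cytokines TNF and IL-6, were followed across 12 libraries of mouse mast cells, as 2 of the 734 endogenous probes of a myeloid innate immunity panel. They were chosen by name, as the rows of the deposited count table whose probe name is Tnf or Il6. Mast cells are tissue-resident cells that carry IgE on the high-affinity receptor FcεRI, and antigen that crosslinks this IgE makes them release stored mediators and transcribe cytokine genes. TNF signals through the receptors TNFR1 and TNFR2 and their TRAF adaptors to NF-κB. IL-6 binds its own receptor chain together with gp130 and signals through STAT3, which SOCS3 restrains. Both mRNAs are classical early response transcripts, driven by NF-κB, NFAT, AP-1 and C/EBP factors and kept short-lived by AU-rich elements in their 3′ untranslated regions.

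The cells were bone marrow-derived mast cells (BMMCs) from C57BL/6 mice, grown in IL-3 for at least 4 weeks. All were edited with Cas9 and a repair template that places a ZsGreen reporter followed by a polyA-STOP cassette in the target gene. All were sorted for ZsGreen. The target was Kit, the stem cell factor receptor gene, in the control group (c-Kit KO), and Mettl3, the catalytic subunit of the m6A mRNA methyltransferase, in the other (Mettl3 KO). Cells of each genotype were left unstimulated (US) or received IgE and antigen for 4 h (IgE), with 3 replicates in each of the 4 groups, numbered 1, 2 and 3. No unedited cells are among these groups, and the sort keeps the edited population of a culture, not a single clone.

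Tnf lies on the minus strand of GRCm39 at chr17:35418357-35420983, between Ltb at chr17:35413382-35415296 and Lta at chr17:35422141-35424327, which encode the lymphotoxins. Il6 lies on the plus strand at chr5:30218112-30224979. The probes bind at position 514 (Tnf) and position 40 (Il6) of the RefSeq mRNAs. Promoter windows of 300 bases, 250 before to 50 after the start, were read from the RefSeq promoter table (GRCm38.p6), which holds 1 entry for each gene. They were searched on both strands for NF-κB (GGANTTTCC), AP-1 (TGANTCA), C/EBP (TTGCNNAA), NFAT (GGAAAA) and the TATA box (TATAAA). Capitals mark the matched letters, printed on the strand of the gene.

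Il6, NF-κB, chr5:30013061-30013090, plus strand: atcaaatgtgGGATTTTCCcatgagtctca
Il6, C/EBP, chr5:30012975-30013004, plus strand: acgacgtcacaTTGTGCAAtcttaataagg
Il6, AP-1, chr5:30012864-30012893, plus strand: cTGAGTCActtttaaagaaaaaaaagaaga
Tnf, TATA box, chr17:35202019-35202048, minus strand: ttccccaagggcTATAAAggcggccgtctg
Tnf, NFAT, chr17:35202045-35202074, minus strand: ttgaatgagagcTTTTCCccgccctcttcc
Tnf, NFAT, chr17:35202068-35202097, minus strand: ccaccaaggaagTTTTCCgagggttgaatg

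The NF-κB letters of Il6 begin 43 bases before the start, and their last 6 bases also read as NFAT on the opposite strand. The C/EBP letters of Il6 begin 128 bases before the start and the AP-1 letters 249 bases before it. In Tnf the TATA box begins 29 bases before the start, and the NFAT letters, both on the opposite strand, begin 55 and 78 bases before it. Of 32851 promoters in the table, 1.25% held the NF-κB letters, 7.81% AP-1, 10.8% C/EBP, 13.6% the TATA box and 23.4% NFAT. Among 509 promoters of panel genes these shares were 4.91%, 8.25%, 14.3%, 14.5% and 24.4%. Motifs without a printed match were not found in these windows as spelled. Sites outside the windows or spelled otherwise were not searched for, and the use of any match was not tested.

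The 3′ untranslated region is 764 bases long in the transcript Tnf-201 and 427 bases in Il6-201 (GENCODE, GRCm39). The pentamer ATTTA, the core of AU-rich elements, occurs 8 times in that of Tnf and 6 times in that of Il6, or 10.5 and 14.1 times per kilobase. Across 728 panel genes the median was 1.30 per kilobase, and 97.3% of them had a lower density than Tnf and 98.6% a lower density than Il6. The nonamer TTATTTATT was found 5 times in Tnf, in 0 places in Il6, and in 9.20% of the panel genes. GGACT, a common form of the sequence that the Mettl3 complex methylates, was found 2 times in Tnf and in 0 places in Il6, and 62.6% of the panel genes held it. Other forms of that sequence and the rest of each transcript were not searched. The study lists both Tnf and Il6 among transcripts methylated in mast cells stimulated with PMA and ionomycin. It also reports that Mettl3 lowered luciferase from reporters with either 3′ untranslated region in HEK293T cells. The densest 30 bases of each gene are shown with ATTTA in capitals.

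Tnf, chr17:35418655-35418684, minus strand: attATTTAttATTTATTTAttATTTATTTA
Il6, chr5:30224675-30224704, plus strand: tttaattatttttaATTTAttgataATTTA

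Barcodes counted on endogenous probes summed to 504238 to 737910 per library, and 8 negative control probes averaged 7.13 to 22.8 counts. Counts were divided by the geometric mean of 20 housekeeping probes relative to its mean over libraries, and are called normalised counts. All 10 mast cell markers examined, FcεRI chains and granule proteases among them, lay above background (the mean of the negative controls plus 2 SD) in all 12 libraries. Of 39 markers of other cell types, 30 were above background in 0 libraries, 8 in some libraries and 1, Cx3cr1, in all 12. Mettl3 has no probe, and the Kit probe, at position 4275 of its transcript, lies downstream of the edited exon, outside the edited stretch. The inserted polyA-STOP cassette lies upstream of this probe, and its effect on the Kit count was not tested. Kit read 1856 to 2856 normalised counts in the unstimulated libraries with the c-Kit KO label and 2456 to 4057 in those with the Mettl3 KO label, and was the higher under the c-Kit KO label in replicates 2 and 3. The difference did not pass (adjusted p = 0.997 by edgeR), and the labels were not settled from this probe. The names c-Kit KO and Mettl3 KO stand for libraries labelled so in every direction given.

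In resting cells both transcripts were detectable, and Tnf was close to background. Unstimulated c-Kit KO libraries held 68.5, 50.5 and 33.2 normalised counts of Tnf in replicates 1, 2 and 3, and unstimulated Mettl3 KO libraries held 48.7, 92.3 and 25.2. These values are the 6 lowest of the series for Tnf, and those of the genotypes overlap. The raw counts behind them ran from 29 to 66, which is 1.92 to 7.02 times the mean of the negative controls in the same library. The lowest, 29 counts, has an exact 95% Poisson interval of 19.4 to 41.6, which covers counting error only.

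Il6 stood well above background in the same cells. Its unstimulated level was 729, 936 and 667 normalised counts in c-Kit KO replicates 1, 2 and 3, and 668, 1246 and 635 in the Mettl3 KO replicates. These raw counts were 34.9 to 74.7 times the mean of the negative controls. The highest basal level of either gene came from unstimulated Mettl3 KO replicate 2. A bulk count cannot tell a transcript held at a low level by all cells from one held by a small share of them.

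No difference of basal Tnf or Il6 between genotypes was established beyond the spread of the replicates. The log2 fold change of Mettl3 KO over c-Kit KO was 0.12 for Tnf (standard error 0.95, 95% interval -1.94 to 2.18) and 0.13 for Il6 (standard error 0.46, 95% interval -0.87 to 1.13). The adjusted p was 0.997 for both genes in edgeR, with Benjamini-Hochberg adjustment over the 545 genes tested, of which 0% passed in this comparison (7 at an unadjusted p under 0.05, and 0 with DESeq2 or limma). The sign of the Tnf value turned with TMM scaling, DESeq2 and limma. Within same-numbered pairs both genes were lower in the Mettl3 KO library in replicates 1 and 3 and higher in replicate 2. The Tnf interval spans both a fall and a rise. From RNA sequencing of other resting cells, edited for Mettl3 and still holding some untargeted cells, the study reports increased basal Tnf.

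**Figure D1:**
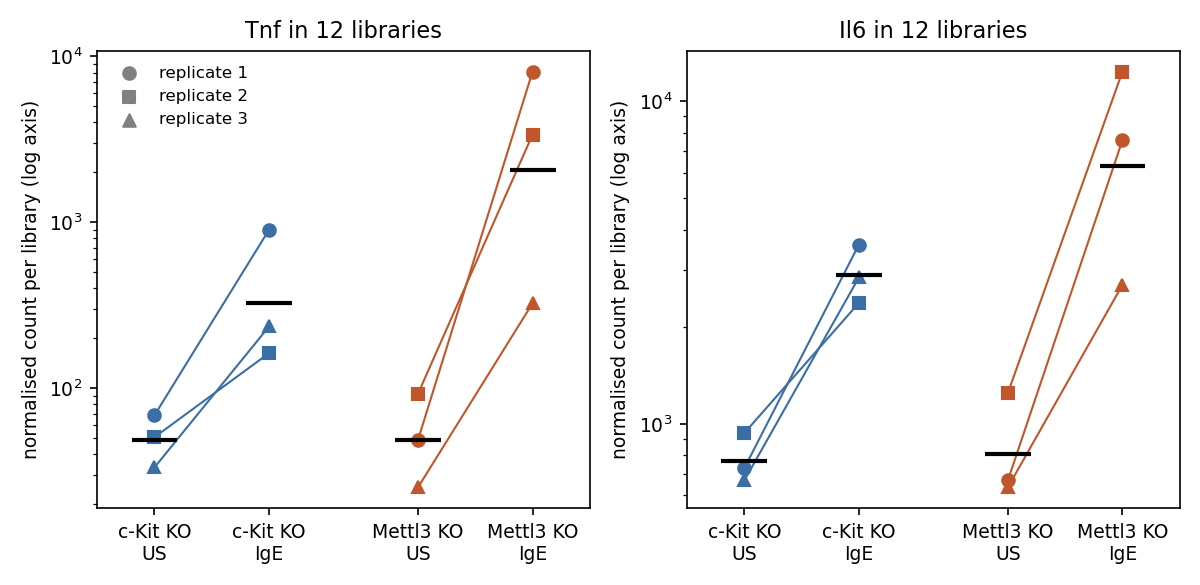
Normalised counts of Tnf (left) and Il6 (right) in each of the 12 libraries, on log axes, by genotype and stimulation. Markers stand for replicates, lines join the same replicate number within a genotype, and black bars are geometric means; every stimulated library lies above all unstimulated ones, and stimulated Mettl3 KO replicate 3 lies near the stimulated c-Kit KO libraries.

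Stimulation raised both genes in c-Kit KO cells. Tnf reached 901, 162 and 235 normalised counts in replicates 1, 2 and 3, which is 13.2, 3.22 and 7.08 times the unstimulated library of the same number. Replicate 1 stood well above the others, and stimulated and unstimulated libraries did not overlap. The log2 fold change of Tnf was 3.10 (standard error 0.99, 95% interval 0.95 to 5.25, adjusted p = 0.0459 by edgeR), rank 21 of the 545 genes by rise. In this comparison 12.1% of the genes tested were called higher and 6.79% lower.

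Il6 rose less in size in c-Kit KO cells, with a smaller error. Its stimulated level was 3598, 2373 and 2845 normalised counts, 4.94, 2.53 and 4.26 times the matching unstimulated library, again without overlap. The log2 fold change was 1.92 (standard error 0.47, 95% interval 0.88 to 2.95, adjusted p = 0.0177 by edgeR), which ranks 49 of 545 by rise.

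The Tnf call in c-Kit KO cells sits at its threshold. It was lost in 8 of 9 fits that left out a replicate number or a single library, with an adjusted p of up to 0.245 from edgeR, and without stimulated c-Kit KO replicate 1 the log2 fold change was 1.98 (adjusted p = 0.168). It was kept without stimulated c-Kit KO replicate 2 (adjusted p = 0.0442). The Il6 call was lost without replicate 1 (adjusted p = 0.187) and without unstimulated c-Kit KO replicate 1 (adjusted p = 0.0667) or 3 (adjusted p = 0.0682), by edgeR in each case.

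In Mettl3 KO cells the rise of both genes was steeper on average and varied more between replicates. Tnf reached 8114, 3382 and 324 normalised counts in replicates 1, 2 and 3, against 48.7, 92.3 and 25.2 before stimulation, a rise of 167, 36.6 and 12.9 times. Replicate 3 fell within the range of the stimulated c-Kit KO libraries, and the other 2 replicates lay above it. The log2 fold change was 6.17 (standard error 1.12, 95% interval 3.71 to 8.62, adjusted p = 0.00155 by edgeR). That places Tnf at rank 4 of the 545 genes by rise in Mettl3 KO cells, where 22.0% of the genes were called higher and 10.6% lower.

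Il6 reached 7585, 12382 and 2699 normalised counts in stimulated Mettl3 KO replicates 1, 2 and 3. These are 11.4, 9.93 and 4.25 times the unstimulated libraries of the same number. Here too replicate 3 lay within the c-Kit KO range and the other 2 above it. The log2 fold change was 3.15 (standard error 0.50, 95% interval 2.07 to 4.24, adjusted p = 0.000656 by edgeR), rank 35 by rise. Both calls held with each replicate and each library left out, and both were lost with unmoderated limma fitted to the compared groups alone (adjusted p = 0.0863 for Tnf and 0.0695 for Il6).

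Macrophages and monocytes also make TNF and IL-6. The summed level of 13 of their markers was 1582 to 2390 normalised counts in unstimulated libraries and 223 to 628 in stimulated ones. The marker Cx3cr1 had 1321 to 2180 normalised counts unstimulated and 57.1 to 451 stimulated. Of the 13, 10, including Csf1r and Cd14, were above background in 0 libraries. The summed level of the 10 mast cell markers was also lower with stimulation, at 354926 to 503712 unstimulated and 165583 to 304633 stimulated. The eosinophil marker Siglecf instead was higher with stimulation, at 15.8 ± 5.34 and 47.9 ± 26.4 normalised counts in c-Kit KO and 18.9 ± 1.47 and 85.9 ± 43.0 in Mettl3 KO cells (SD, n = 3), above background in each stimulated and no unstimulated library, while the other 4 of 5 eosinophil markers were above it in 0 libraries. The 2 c-Kit KO libraries of replicate 1 also had the lowest positive control counts, a geometric mean of 738 and 768 against 1195 to 1706 elsewhere. The part of these in the cytokine values was not tested, other than that scaling to positive controls before housekeeping scaling left each result as it was, by construction.

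**Figure D2:**
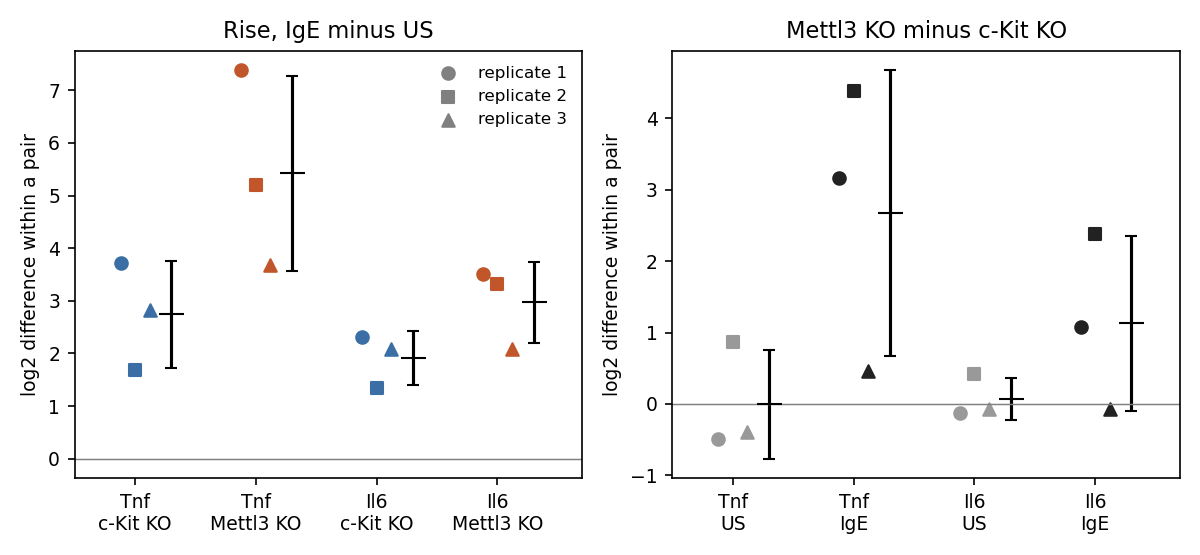
Log2 differences within same-numbered pairs, for the rise with stimulation (left) and for Mettl3 KO minus c-Kit KO (right). Points are replicates, and the bar beside them is the mean with its SD (n = 3). For both genes the rise lies above 0 in all 6 pairs, while the stimulated difference between genotypes is 3.17 and 4.38 for Tnf in replicates 1 and 2 and 0.46 in replicate 3.

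Stimulated Mettl3 KO cells held more Tnf and Il6 than stimulated c-Kit KO cells in replicates 1 and 2, and not clearly so in replicate 3. Tnf was 9.01, 20.8 and 1.38 times the c-Kit KO level in replicates 1, 2 and 3. For Il6 these ratios were 2.11, 5.22 and 0.948. Tnf was therefore higher in 3 of 3 pairs and Il6 in 2 of 3, and the groups overlap through Mettl3 KO replicate 3 for both genes.

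The log2 fold change between the stimulated groups was 3.19 for Tnf (standard error 0.97, 95% interval 1.07 to 5.30, unadjusted p = 0.00656, adjusted p = 0.162 by edgeR). For Il6 it was 1.36 (standard error 0.47, 95% interval 0.35 to 2.38, unadjusted p = 0.0128, adjusted p = 0.205 by edgeR). Neither passed the adjusted threshold, which 0.917% of the 545 genes passed in the higher direction. Both passed the unadjusted thresholds of the study's methods (p of at most 0.05 and 1.5-fold), as did 13.0% of all genes tested in the higher direction. The median log2 fold change over all genes was 0.20 with housekeeping scaling and 0.02 with TMM, under which the values were 2.97 for Tnf and 1.11 for Il6.

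A single library decides these calls. Without stimulated Mettl3 KO replicate 3 the log2 fold change was 3.73 for Tnf (adjusted p = 0.0104) and 1.76 for Il6 (adjusted p = 0.0115), both by edgeR. The study's supplementary counts number that library differently from its label, and the label was followed here. Without replicate 3 in all 4 groups, Tnf passed (adjusted p = 0.0422) and Il6 did not (adjusted p = 0.0520), by edgeR. Leaving out stimulated Mettl3 KO replicate 1 lowered the Tnf value to 2.10, and leaving out replicate 2 of all 4 groups lowered the Il6 value to 0.67.

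Whether the rise itself differed between genotypes was tested as an interaction over all 12 libraries. The rise was larger in Mettl3 KO cells by 3.07 for Tnf (standard error 1.33, unadjusted p = 0.0394, adjusted p = 0.993 by edgeR) and by 1.23 for Il6 (standard error 0.65, unadjusted p = 0.0821, adjusted p = 0.993 by edgeR), on the log2 scale. Within pairs the difference of the rises was 3.66, 3.51 and 0.86 for Tnf and 1.2, 1.97 and -0.0048 for Il6. No difference of the rises was therefore established for either gene. The interaction called 0 of 545 genes with edgeR, where 23 had an unadjusted p under 0.05, 0 with limma and 2 with DESeq2.

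Tnf rose by a larger factor than Il6 in every pair. Because each probe has its own capture efficiency, the ratio of Tnf to Il6 counts is read only as a change between libraries. Unstimulated, the log2 ratio was -3.39, -4.19 and -4.29 in c-Kit KO replicates and -3.75, -3.74 and -4.60 in Mettl3 KO replicates. After stimulation it was -2.0, -3.86 and -3.59 in c-Kit KO and 0.10, -1.87 and -3.05 in Mettl3 KO replicates. The ratio rose in 6 of 6 same-numbered pairs, most in Mettl3 KO replicate 1.

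The mean change of the log2 ratio over both genotypes was 1.61 (exact permutation test within genotypes, two-sided, p = 0.015, with 0.005 the smallest p possible). Exchanging labels within the 6 pairs gave the smallest p that exact test allows, 0.03125. That test takes the 6 pairs as independent. They may not be, if libraries of the same number share a set of cells across genotypes. The change was 0.81 in c-Kit KO (exact permutation p = 0.3) and 2.42 in Mettl3 KO cells (exact permutation p = 0.1), where 3 libraries against 3 cannot go below 0.1. Between stimulated genotypes the ratio differed by 1.54 (exact permutation p = 0.2). With a pseudocount of 20 in place of 1, which damps the near-background Tnf counts, the change was 1.21 (exact permutation p = 0.055). Without replicate 1 it was 1.11 (exact permutation p = 0.0556, the smallest possible), and without replicates 2 and 3 it was 1.87 and 1.86 (exact permutation p = 0.111 for each).

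**Figure D3:**
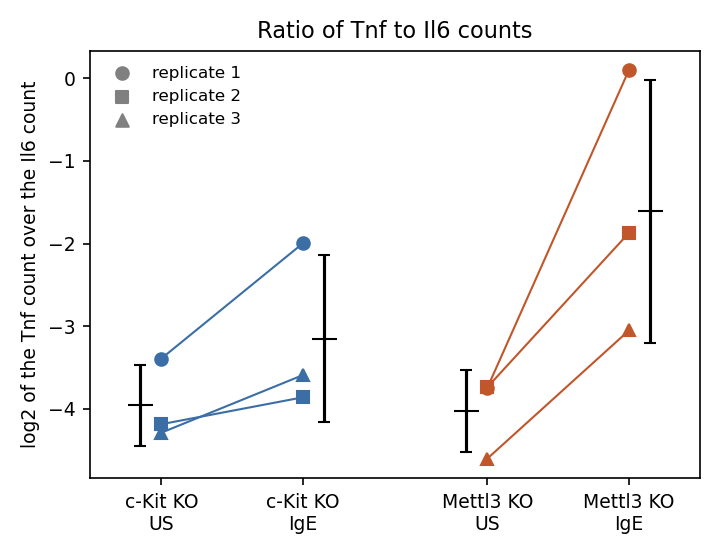
Log2 of the normalised Tnf count (plus 1) over the normalised Il6 count (plus 1) in each library, with lines joining the same replicate number within a genotype and bars giving the group mean and SD (n = 3). All 6 lines rise, from -4.60 to -3.39 unstimulated up to 0.10 in stimulated Mettl3 KO replicate 1.

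By normalised counts, libraries with more Tnf also had more Il6. Among the 6 stimulated libraries Tnf was highest in Mettl3 KO replicate 1 and Il6 in Mettl3 KO replicate 2, c-Kit KO replicate 1 was rank 3 for both, and c-Kit KO replicate 2 was lowest for both. Pearson's r of the log2 levels over these 6 libraries was 0.90 (exact permutation p = 0.0208, adjusted p = 0.0313) and Spearman's rho 0.886 (exact permutation p = 0.0333, adjusted p = 0.0333). Over the 6 same-numbered rises r was 0.95 (exact permutation p = 0.00278, adjusted p = 0.00833) and rho 0.943 (exact permutation p = 0.0167, adjusted p = 0.025). Over the 6 unstimulated libraries r was 0.77 (exact permutation p = 0.0681) and rho 0.943 (exact permutation p = 0.0167, adjusted p = 0.025). Both genes of a library were divided by the same housekeeping factor, and how far this enters the coefficients was not tested. Among unstimulated libraries the order of Tnf was the reverse of the order of this factor. The factor ran from 0.715 in Mettl3 KO replicate 2, highest in Tnf, to 1.15 in Mettl3 KO replicate 3, lowest in Tnf.

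These 3 relations were the whole family computed, adjusted together by Benjamini-Hochberg. Leaving out the 2 points farthest from the median Tnf value gave r = 0.95 for the stimulated libraries and 0.93 for the rises (exact permutation p = 0.0833 for each, n = 4). The unstimulated r fell to 0.30 without Mettl3 KO replicates 2 and 3 and so rests on them, and with TMM it was 0.62. The unstimulated rho also lost its call, at 0.714 with TMM (exact permutation p = 0.136, adjusted p = 0.136) and 0.8 without those 2 libraries (exact permutation p = 0.333). Without the 2 farthest points rho was likewise 0.8 for the stimulated libraries and for the rises (exact permutation p = 0.333 for each, n = 4). With TMM their rho was 0.886 and 0.943 (exact permutation p = 0.0333 and 0.0167), with an adjusted p of 0.05 for each, not under the threshold. Libraries of the same number may share a set of cells across genotypes, which the sample labels do not state, and the points may then not be independent. Each replicate number holds 2 points of a kind, too few for a correlation within it. Each relation also pools both genotypes, and how far a difference between them enters the coefficients was not tested.

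**Figure D4:**
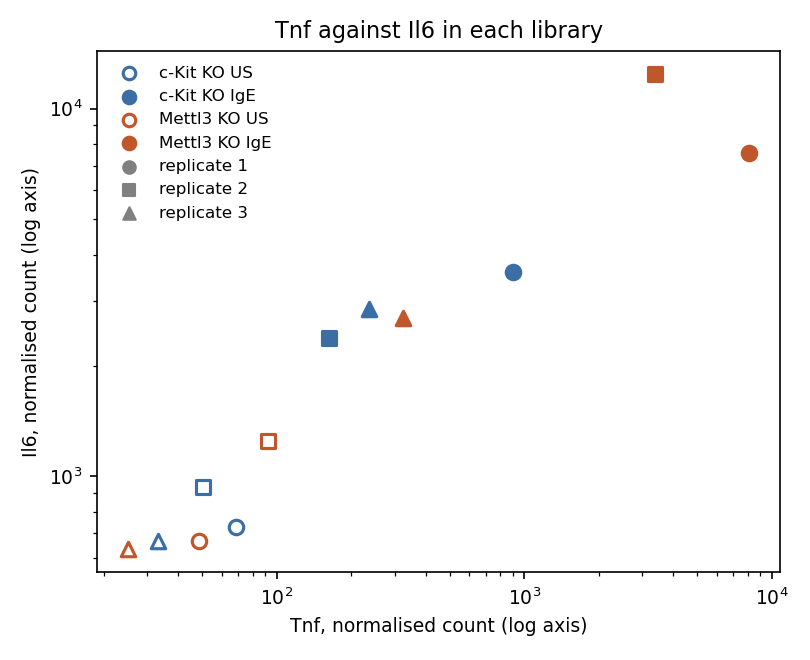
Normalised Il6 count against normalised Tnf count in each of the 12 libraries, both on log axes. Colour gives the genotype, open symbols are unstimulated and filled symbols stimulated libraries, and shapes are replicates. The 6 unstimulated libraries hold at most 92.3 normalised Tnf counts and the stimulated ones at least 162.

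Across all 12 libraries, Il6 was rank 3 among the genes most like Tnf and Tnf rank 8 among those most like Il6, by Pearson's r of log2 levels (r = 0.956, against a median over the tested genes of 0.12 for Tnf and 0.11 for Il6). These coefficients are descriptions over libraries that share stimulation state and replicate numbers. Nearest to Tnf were Ptgs2, which encodes the prostaglandin synthase COX-2 (r = 0.971), and Nr4a1, an immediate early nuclear receptor (r = 0.966), followed after Il6 by the stress-induced factor Atf3 (0.955) and the growth factor gene Hbegf (0.950). Nearest to Il6 were the chemokine gene Ccl4 (r = 0.989), the NFAT factor Nfatc1 (0.969), the scavenger receptor gene Olr1 (0.967), the p38 kinase activator Map2k3 (0.966) and the cytokine gene Csf2 (0.965).

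Within the 6 stimulated libraries the 2 genes were less alike in rank. Il6 was rank 29 for Tnf and Tnf rank 28 for Il6 (r = 0.899). The genes nearest to Tnf there were Hip1r (r = 0.987), the chemokine gene Ccl7 (0.980), Map2k3 (0.965), Nr4a1 (0.963) and the chemokine gene Cxcl2 (0.956). For Il6 they were Arhgef28 (r = 0.994), the TGF-β inhibitor Smad7 (0.974), Map2k3 (0.971), Trim9 (0.971) and the small GTPase gene Rhog (0.969). Map2k3 was near both.

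Of the other TNF superfamily ligands on the panel, 3 of 7 had enough counts to be tested and 2 rose with stimulation in each genotype. Of all genes tested, 12.1% were called higher in c-Kit KO and 22.0% in Mettl3 KO cells. Tnfsf4 encodes OX40L, a T cell costimulatory ligand. It rose from 58.5 ± 18.1 to 435 ± 163 normalised counts (SD, n = 3) in c-Kit KO cells and from 73.1 ± 11.2 to 505 ± 138 in Mettl3 KO cells (SD, n = 3). Tnfsf10, which encodes the death ligand TRAIL, rose from 99.4 ± 50.7 to 324 ± 29.0 and from 186 ± 70.4 to 813 ± 513 (SD, n = 3). Lta and Ltb, on either side of Tnf, did not have enough counts to be tested, and Lta exceeded background in 2 libraries, 1 stimulated library of each genotype, where it read 57.1 and 35.6 normalised counts. The third neighbour on the panel, Lst1, did not pass in either genotype, with log2 fold changes of -0.93 and -0.61.

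Among TNF receptors and their adaptors, 1 of 8 tested genes rose in c-Kit KO cells and 3 of 8 in Mettl3 KO cells. Of all genes tested, 12.1% and 22.0% were called higher. In either genotype 0 of the 8 fell, beside 6.79% and 10.6% of all genes called lower. The TNF receptor-associated factor Traf1 rose in both, by log2 fold changes of 2.07 and 1.89. Traf2 (0.71) and Map3k14, the NF-κB-inducing kinase (1.60), passed in Mettl3 KO cells. The receptor gene Tnfrsf1b had log2 fold changes of 1.71 and 2.03 that did not pass, and Tnfrsf1a was not above background in any group. The median log2 fold change of the list was 0.31 in c-Kit KO and 0.75 in Mettl3 KO cells, beside -0.05 and 0.02 over all 545 genes.

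Of 9 NF-κB factors and inhibitors, 5 rose in Mettl3 KO cells and 1 in c-Kit KO cells, and 0 fell in either. Beside these, 22.0% and 12.1% of all genes tested were called higher, and 10.6% and 6.79% lower. The c-Kit KO counts of this list and of the TNF receptor list were near the share of all genes. Peli1, a ubiquitin ligase of Toll-like receptor signalling, rose in both, by 1.19 and 1.85 on the log2 scale. In Mettl3 KO cells Nfkbia, which encodes the inhibitor IκBα, rose by 2.25, the ubiquitin-editing inhibitor Tnfaip3 (A20) by 2.25, the atypical inhibitor Nfkbiz by 2.13 and the paracaspase gene Malt1 by 0.98. Their values in c-Kit KO cells were 0.87, 1.34, 1.19 and 0.35. The interaction passed for 0 of the 9 genes (adjusted p = 0.993 for each, edgeR), so a difference between genotypes in these rises was not established.

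Of 13 factors listed as binding the Tnf or Il6 promoter, 3 were called higher and 1 lower in c-Kit KO cells. In Mettl3 KO cells 8 were called higher and 1 lower. Beside these, the same 12.1% and 22.0% of all genes were higher, and 6.79% and 10.6% lower. Binding of these factors was not measured in these cells. The zinc finger factor Egr2 rose by 3.66 and 4.10 on the log2 scale, Ets1 by 2.23 and 2.88, and Nfatc1 by 0.93 and 1.80 in c-Kit KO and Mettl3 KO cells. Nfatc2, another NFAT factor, fell by 1.17 and 1.5 in c-Kit KO and Mettl3 KO cells. Atf3 rose by 5.89 in Mettl3 KO cells and had 2.44 in c-Kit KO cells, which did not pass. Cebpb, which encodes a C/EBP factor first described as a nuclear factor for IL-6, rose by 2.53 in Mettl3 KO cells and had 0.76 in c-Kit KO cells. Between stimulated genotypes the median of the list was 0.68, beside 0.20 over all genes, and 0 of 13 passed.

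Of the IL-6 receptor and signalling genes, 0 of 4 tested passed in either genotype, with median log2 fold changes of -0.37 and -0.25. The feedback inhibitor Socs3 had 0.02 in c-Kit KO and 0.74 in Mettl3 KO cells, Stat3 had -0.45 and -0.17, and the receptor gene Il6ra did not have enough counts to be tested. The related cytokines Lif, Osm and Il27 also gave 0 of 3 calls in either genotype, and beside 12.1% and 22.0% of all genes higher a count of 0 among so few genes says little. The highest of them was Lif, with 0.92 and 1.5 (unadjusted p = 0.0476 in Mettl3 KO cells by edgeR), and no other gene of both lists had an unadjusted p under 0.05.

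Of 4 testable acute inflammatory cytokines, Il1a and Il1b, the genes of the 2 forms of IL-1, rose in both genotypes, by 5.87 and 4.11 in c-Kit KO cells and by 5.98 and 4.27 in Mettl3 KO cells. Their differences between stimulated genotypes were 0.49 and -0.17, beside 3.19 for Tnf and 1.36 for Il6. Il12b (-0.02 and 0.08) and Csf3 (0.33 and 0.55) did not pass in c-Kit KO or Mettl3 KO cells. Of 6 lymphokines 4 rose in c-Kit KO cells and 5 in Mettl3 KO cells, and between stimulated genotypes 2 of the 6, Il2 and Il3, passed (log2 fold changes 5.08 and 3.99), where 12.1%, 22.0% and 0.917% of all genes tested were called higher. Il9 rose in c-Kit KO cells (3.23) and did not pass in Mettl3 KO cells (1.30, adjusted p = 0.318 by edgeR). Of all genes on these lists, Il2 and Il3 were the only ones called between stimulated genotypes, and 0 were called between unstimulated genotypes.

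**Figure D5:**
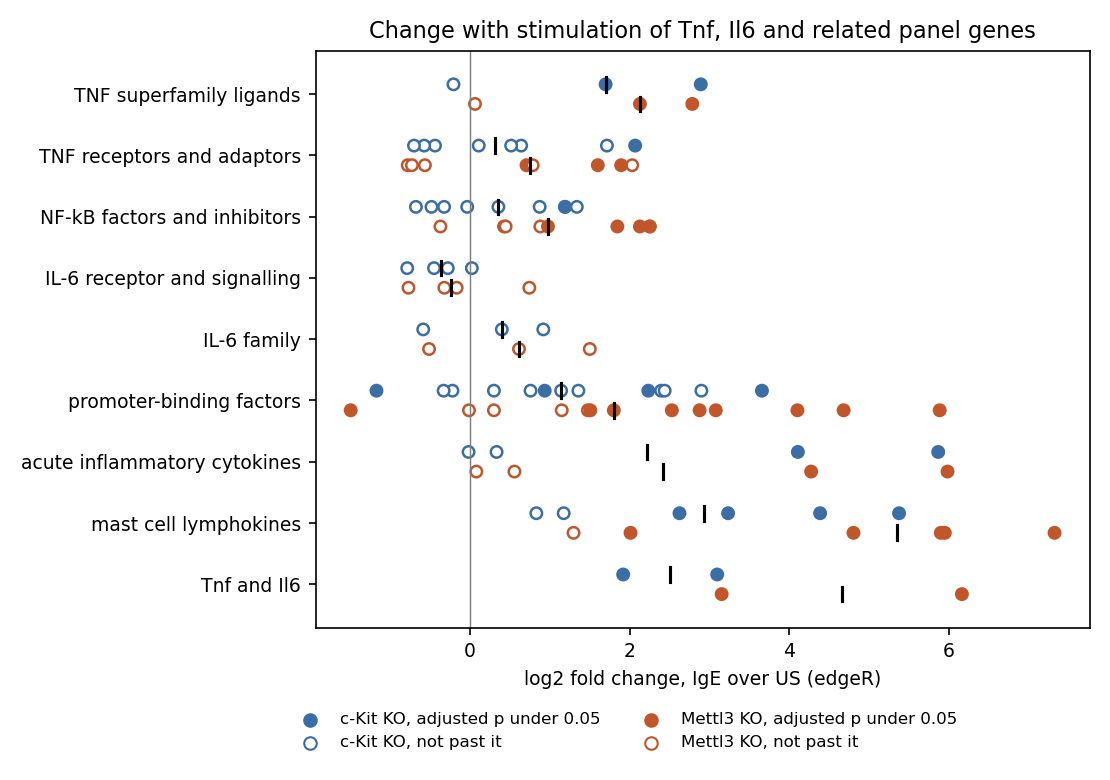
Log2 fold change with stimulation (edgeR) of Tnf, Il6 and the tested genes of 8 related lists, in c-Kit KO and Mettl3 KO cells. Each point is a gene, filled where the adjusted p was under 0.05, and the black tick is the median of the list. Tnf and Il6 are filled in both genotypes, and the IL-6 receptor and IL-6 family lists have no filled point.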

How the data were processed

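RNA (40 ng) from 12 samples was hybridized to the nCounter Myeloid Innate Immunity Panel by the authors, who deposited raw barcode counts per probe, with no normalization, alignment or genome build. The panel has 768 probes: 734 endogenous, 20 housekeeping, 6 positive and 8 negative controls. The table's summary columns were not used, and 0 per-sample columns lacked a sample.

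Counts were scaled by the geometric mean of the housekeeping probes. The 545 probes with at least 20 counts in at least 3 libraries were tested with edgeR 4.0.16 (R 4.3.3), quasi-likelihood, in 1 model of 4 groups with 8 residual degrees of freedom, and Benjamini-Hochberg adjustment within each comparison, called at 0.05. The test was tried on simulated counts. Ratios and correlations used log2(normalised count + 1) and exact permutation tests (scipy 1.17.1). The named genes are Tnf, Il6, the 5 most correlated with each over 12 and over 6 stimulated libraries, list members called at an adjusted p under 0.05 (up to 6 a list), and Kit. Other list genes were named after their values were seen. Members and lists were chosen with earlier results of these data known. Alternatives were TMM, DESeq2 1.42.0, limma 3.58.1 with and without moderation, only the 16 housekeeping probes averaging 100 counts or more, other filters, background subtraction, the replicate block and left-out libraries.

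Groups and replicate numbers come from the labels. Deviations from the group means correlated in each of the 18 pairs of libraries with the same number (r 0.14 to 0.52). The numbers were therefore taken to pair the samples in the same-numbered comparisons and in the replicate block. The main edgeR model held no replicate term, so its p-values and intervals are unpaired. Endogenous totals were 504238 to 737910 per library. Pairs of replicates of a group differed beyond counting error, with a chi-square per degree of freedom of 23.8 to 232.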

Additional observations from a re-analysis of the deposited data

How the results depend on the processing

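The rises of Tnf and Il6 with stimulation and the higher stimulated levels of both in Mettl3 KO cells kept their direction under every alternative run, from 20 to 21 per gene and comparison. In c-Kit KO cells limma gave 2.72 for Tnf with moderation (adjusted p = 0.0861) and without (adjusted p = 0.139). Over left-out replicates and libraries the log2 rise was 1.98 to 3.49 for Tnf and 1.70 to 2.21 for Il6. In Mettl3 KO cells unmoderated limma gave 5.39 for Tnf and 2.97 for Il6, and the left-out range was 5.0 to 6.84 and 2.60 to 3.56. Between unstimulated genotypes, where nothing was called, the Tnf sign turned with TMM (-0.048), DESeq2 (-0.012) and limma with and without moderation (-0.0040), and left-out values ran from -0.45 to 0.48 for Tnf and -0.26 to 0.30 for Il6. Between stimulated genotypes they ran from 2.10 to 4.31 and from 0.67 to 1.76, and the interaction from 1.98 to 4.19 and from 0.68 to 1.64, never called. The change of the ratio ran from 1.11 to 1.87 over left-out replicates and was 1.21 with a pseudocount of 20. Pearson's r without the 2 farthest points was 0.95 for stimulated libraries and 0.93 for the rises, with 4 points each. Spearman's rho was 0.8 for each (exact permutation p = 0.333). Where no cause is given, the cause was not tested.

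With the replicate number as a block, the rise in c-Kit KO cells was 2.90 for Tnf (adjusted p = 0.0153) and 1.98 for Il6 (adjusted p = 0.00434, edgeR), and stimulated genotypes differed by 2.82 and 1.16 (adjusted p = 0.0996 and 0.146, edgeR). The block changed no call of Tnf or Il6. Together with leaving out stimulated Mettl3 KO replicate 3 it gave 3.51 (adjusted p = 0.00687) and 1.59 (adjusted p = 0.0158). Calls over all genes in c-Kit KO cells went from 103 to 156 with the block, 49 with unmoderated limma and 32 without replicate 1. Those in Mettl3 KO cells went from 178 to 68 with unmoderated limma and 71 without replicate 1. Those between stimulated genotypes went from 5 to 23 with DESeq2, 0 with only the groups compared, 33 without Mettl3 KO replicate 3 and 45 with the block as well. Unstimulated Tnf rests on 29 to 66 raw counts. Its coefficient of variation between replicates was 34.8% in c-Kit KO and 61.5% in Mettl3 KO cells.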
